A study of Arabidopsis thaliana with 8 samples.

Results

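Zone 4 of the Arabidopsis thaliana root was compared with its neighbour zone 3 under low sulfur. The comparison was defined by the labels: the 2 arrays labelled longitudinal zone 4 were set against the 2 labelled longitudinal zone 3, which are 4 of the 8 arrays of a study of 4 zones. All plants were of the Columbia ecotype, and no mutant or transgene is named. All 4 zones shared 1 treatment: seedlings 5 days old on MS plates, a complete mineral medium, were moved 3 hours before dissection to plates whose listed salts hold no sulfate. No array came from roots with sufficient sulfur, so the comparison measures position along a sulfur-deprived root and not the effect of sulfur. Neither the boundaries of the zones nor which of them holds the root tip is given in the sources used here. The labels do not call the 2 arrays of each zone separate cultures, so the p-values below rest on a spread that may be purely technical.

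A root grows from a meristem, where cells divide and make new ribosomes at a high rate. Cells that leave the meristem elongate, which needs wall-loosening enzymes, and then differentiate into hairs, vessels and other mature tissues with thickened walls and their own metabolism. Lateral roots, which start in more mature parts of the root, set up new meristems with dividing cells of their own. In RNA from whole root pieces, a lower signal can come from fewer cells of a type or from less of the transcript in each cell, and the arrays cannot tell these apart.

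Of the 13647 probe sets tested, 288 differed between the zones, 252 of them higher and 36 lower in zone 4. A probe set is a group of short probes for 1 transcript, and its MAS5 signal is the scaled brightness that stands for the transcript's level. It was called higher or lower at an adjusted p under 0.05 and a difference of at least 2-fold, by limma's moderated test with Benjamini-Hochberg adjustment over all probe sets tested. The calls are 2.11% of the probe sets tested, with 1.85% higher and 0.264% lower. At an unadjusted p under 0.05 there were 2546 probe sets, or 18.7%. The log2 difference, zone 4 minus zone 3, had a median of 2.24 over the 252 and of -1.77 over the 36. Its median over all probe sets tested was 0.10, and -0.14 once each array was centred on its own median, so differences of this size have no settled direction.

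The number of calls depended on single arrays. Removing zone 4 replicate 1 left 0 calls, with 1468 probe sets at an unadjusted p under 0.05, and removing zone 4 replicate 2 left 0, with 1634. It was 26 without zone 3 replicate 1, with 26 higher and 0 lower and 1567 at an unadjusted p under 0.05, and 628 without zone 3 replicate 2, of which 590 were higher. Leaving out zone 2 replicate 1 gave 97 and zone 2 replicate 2 gave 141, since all 8 arrays share the estimate of the spread. Without zone 1 replicate 1 it was 396, with 68 lower in zone 4 in place of 36, and without zone 1 replicate 2 it was 387, with 67 lower. A fit of zones 3 and 4 alone called 3, with 2812 at an unadjusted p under 0.05. Every call of a single gene described below was lost without either zone 4 array, and it was also lost without zone 3 replicate 1 for all of the 56 called genes followed singly but 3, ATLP-1, ATGSTF13 and Haspin. The difference of these 56 genes changed sign under none of the alternatives run.

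The zone 3 arrays were less alike than the zone 4 arrays. Their log2 signals correlated over the 13647 probe sets with r = 0.899, against 0.938 for the zone 4 arrays and 0.841 to 0.883 between the zones. Zone 3 replicate 2 was closer to zone 2 replicate 2 (r = 0.916) than to zone 3 replicate 1. This unevenness ran in the direction of the calls: zone 3 replicate 2 lay above zone 3 replicate 1 in 219 of the 252 probe sets called higher (86.9%), against 57.3% of all probe sets tested. Its part in the result was not tested. Median signals were 59.9 and 71.5 on the zone 3 arrays and 75.3 and 79.6 on the zone 4 arrays. The GAPDH control compares probes at both ends of its transcript. Its ratio of 3' over 5' signal climbs as RNA or its amplified copy is shortened. It was 14.8 and 26.0 in zone 3 and 29.5 and 17.7 in zone 4, so the zones overlapped. In zones 1 and 2, which share the estimate of the spread, it was 64.3 and 13.2, then 18.5 and 32.2. The 3' signal thus far exceeded the 5' signal on every array.

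Of 54 cell type markers looked for, 7 had a named probe set. BBM, a transcription factor gene of root stem cells and the meristem, had signals of 1.6 and 10.8 in zone 3, replicates 1 and 2 in that order here and below, and of 156 and 235 in zone 4. The root hair genes EXPA7 and EXPA18 encode expansins, which loosen the wall of the growing hair. EXPA7 had signals of 145 and 118 in zone 3 and of 164 and 619 in zone 4, and EXPA18 had 215 and 101, then 154 and 1270. BBM was high on both zone 4 arrays, and the hair genes stood out on zone 4 replicate 2 alone. BBM was higher in zone 4 (log2 difference 5.53, SE 1.01, adjusted p = 0.033), but its zone 3 signals were at the dim end of the arrays, and it was not called once dim signals were raised to each array's 40th percentile (log2 difference 2.21, adjusted p = 0.054). EXPA7 and EXPA18 were not called (1.29 and 1.58, adjusted p = 0.44 and 0.46). RCA, which encodes Rubisco activase and marks green tissue, had 94.7 and 35.7 in zone 3 and 69.5 and 106 in zone 4 (adjusted p = 0.8). The lateral root genes LBD16, LBD29 and PUCHI were below the filter on dim probe sets and had signals from 2.83 to 80.7 on the 4 arrays.

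**Figure D1:**
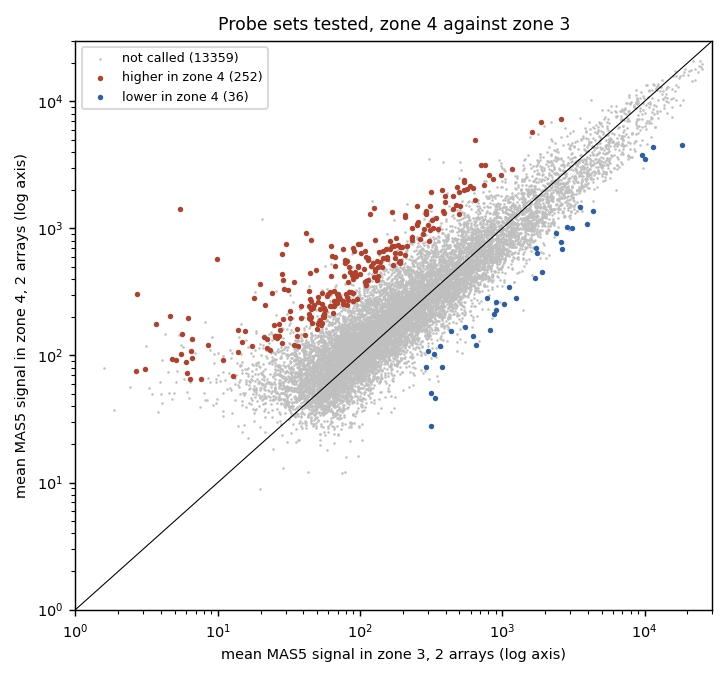
Mean MAS5 signal in zone 4 (vertical, log axis) against zone 3 (horizontal, log axis) for the 13647 probe sets tested, 2 arrays per zone. Grey points are probe sets not called, red points the 252 higher and blue points the 36 lower in zone 4, and the line marks equal signals. The red points reach down to zone 3 signals of a few units, and the blue points start at higher zone 3 signals, with none at the dim end.

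Called probe sets were found across the range of brightness but with a different balance at each level. Probe sets were split into 4 classes of equal size by their mean signal over all 8 arrays. In the dimmest class (42.5 to 97.2) 13 were higher and 0 lower. In the brightest class, with mean signals from 501, 92 were higher (2.7%) and 18 lower (0.528%). The median log2 difference of a class went from 0.18 in the dimmest through 0.17 and 0.10 to -0.06 in the brightest. A mean signal of at least 1000 was reached by 26 of the 252 and by 16 of the 36. Of the 252, 63 had a zone 3 mean no higher than 42.5, the signal at which dim probe sets were filtered out, and 225 of the 252 and all 36 were still called with dim signals raised.

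**Figure D2:**
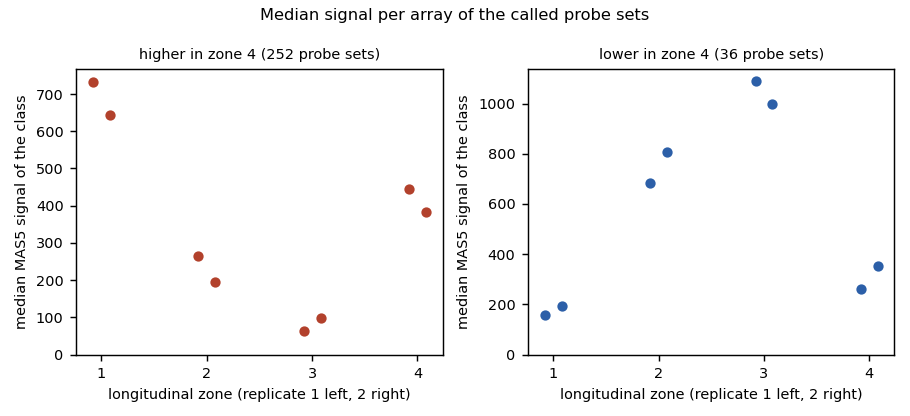
Median MAS5 signal on each of the 8 arrays (points, replicate 1 left and replicate 2 right) across the 4 longitudinal zones, for the 252 probe sets called higher (left panel) and the 36 called lower (right panel) in zone 4 than in zone 3. The first class was lowest in zone 3 and high in both zone 1 and zone 4, and the second was highest in zone 3 and low in zones 1 and 4. The order of zones 3 and 4 is set by the calls that picked the probe sets, and the filter used the mean over all zones.

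Probe sets that were higher in zone 4 had a dip in zone 3, and those that were lower had a peak there. The 252 had median signals of 708, 226, 81.1 and 421 in zones 1 to 4, and 247 of them had their lowest mean in zone 3, which the comparison favours. Of the other zones, zone 1 held the highest mean of 222, zone 4 that of 29 and zone 2 that of 1. These counts are not free of the selection. The call favours a high signal in zone 4, and the filter on the mean over all zones favours a high signal in any zone, zone 1 included. The 36 had medians of 177, 732, 1070 and 283 in zones 1 to 4. Of these, 34 were highest in zone 3, which the comparison favours, and 2 in zone 2, while 27 were lowest in zone 1 and 9 in zone 4. The same counts were not made over all probe sets tested. In both classes the zone 4 median lay between those of zone 3 and zone 1.

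Genes of mitosis and cell division included some of the called genes with the widest differences. Of 19 such genes tested, 5 were higher in zone 4 and 0 lower, beside 1.85% and 0.264% of all probe sets tested. Their median log2 difference was 0.70 against 0.10 over all probe sets tested. In 11 of the 19 both zone 4 arrays lay above both zone 3 arrays, as in 30.9% of all probe sets tested, and in 2 they lay below, as in 22.8%. The 5 encode kinases, chromosome proteins and a checkpoint protein.

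Haspin encodes a kinase that marks histone H3 at mitosis. Its signals were 4.5 and 6.53 in zone 3 and 112 and 93.3 in zone 4, so that it was dim in zone 3 and higher on both zone 4 arrays (log2 difference 4.24, SE 0.59, adjusted p = 0.015). With dim signals raised it was not called (1.3, adjusted p = 0.12). AUR2, an Aurora kinase that acts on the spindle and the cell plate, had 74.6 and 104 in zone 3 and 834 and 569 in zone 4. It was high on both zone 4 arrays and rose 7.82-fold (log2 difference 2.97, SE 0.44, adjusted p = 0.017). 3xHMG-box1 and 3xHMG-box2 encode proteins of the high mobility group that bind chromosomes in dividing cells. 3xHMG-box1 had 25.0 and 29.2 in zone 3 and 190 and 161 in zone 4 (log2 difference 2.70, SE 0.40, adjusted p = 0.017). 3xHMG-box2 had 59.9 and 169, then 702 and 461 (2.50, SE 0.46, adjusted p = 0.034). Both genes rose, 3xHMG-box1 from even zone 3 signals and 3xHMG-box2 from zone 3 signals that differed by more than 2-fold. BUB3.1, a member of the spindle checkpoint, had 155 and 225 in zone 3 and 652 and 462 in zone 4, which did not overlap (1.55, SE 0.34, adjusted p = 0.048).

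The other 14 division genes did not pass, and they were not of one kind. BUBR1, a checkpoint kinase, had signals of 3.2 and 8.29 in zone 3 and 97.0 and 32.7 in zone 4 (log2 difference 3.45, adjusted p = 0.051, and 0.67, adjusted p = 0.49, with dim signals raised). The remaining Aurora kinase genes showed the same order of arrays as AUR2, with zone 3 replicate 1 lowest. AUR1 had 102 and 267, then 717 and 513 (1.88, adjusted p = 0.065), and AUR3 had 5.86 and 96.3, then 158 and 128 (2.58, adjusted p = 0.17, and 1.27, adjusted p = 0.15, with dim signals raised). The phragmoplast motor gene KINESIN-12B had 24.0 and 68.8, then 115 and 80.3 (adjusted p = 0.3). SAMBA and HBT of the anaphase-promoting complex and its regulators, WYR of the chromosomal passenger complex and HTR12, the centromeric histone, had log2 differences from 0.20 to 0.31. At the other end were 2 brighter genes. The kinesin gene KINESIN-13A had 1680 and 1260 in zone 3 and 961 and 869 in zone 4 (-0.67, adjusted p = 0.29). TPLATE, part of a complex that takes up membrane and serves the cell plate, had 1500 and 968, then 710 and 723 (-0.75, adjusted p = 0.23). Without zone 3 replicate 2 the list had 8 called members, without zone 3 replicate 1 it had 1, and it had 3 without either zone 2 array and 0 without either zone 4 array.

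Of 12 genes for DNA replication and histones, 1 was higher in zone 4 and 0 were lower, beside 1.85% and 0.264% of all probe sets tested. The median log2 difference was 0.81. TOPII encodes a topoisomerase that untangles replicated chromosomes. Its signals were 65.4 and 128 in zone 3 and 535 and 457 in zone 4, with no overlap (log2 difference 2.43, SE 0.41, adjusted p = 0.025, lost without zone 3 replicate 1 or either zone 4 array). The other members were closer together: the DNA polymerase delta subunit gene POLD3 had the widest difference at 1.90 (adjusted p = 0.13, and 0.95, adjusted p = 0.22, with dim signals raised), and the replication factor genes PSF2 and POLA3 had 1.25 and 1.18. Among 4 histone H2B genes, HTB4 had 3510 and 4580 in zone 3 and 6740 and 6970 in zone 4 (0.77, adjusted p = 0.15), HTB1 and HTB2 had 0.56 and 0.12, and HTB11 had -0.40. These H2B genes thus spanned both signs, and none passed.

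Every gene on the list for ribosome assembly and rRNA synthesis had both zone 4 arrays above both zone 3 arrays, as 30.9% of all probe sets tested did. The list held 13 genes, of which 3 were higher by the test, beside 1.85% of all probe sets tested, and its median log2 difference was 1.63. NOTCHLESS (NLE, AT5G52820) and PESCADILLO (PES, AT5G14520) act on the large ribosomal subunit as it matures. NLE had signals of 166 and 252 in zone 3 and 1330 and 1140 in zone 4 (log2 difference 2.59, SE 0.49, adjusted p = 0.034). PES had 446 and 1070, then 3510 and 2750 (2.17, SE 0.44, adjusted p = 0.039). PES was thus among the brighter genes of the comparison, and its zone 3 arrays differed more from each other than its zone 4 arrays did. IMP4, part of the small-subunit processome, had 165 and 265 in zone 3 and 796 and 663 in zone 4 (1.80, SE 0.34, adjusted p = 0.034). All 3 rose by 3.48-fold to 6.03-fold. NLE and PES entered the list by locus number, with earlier results of these data known. So did NOB1 (AT5G41190) and AT3G09720, described below. The shares of this list called or above are therefore not independent of these data.

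The other 10 ribosome assembly genes had log2 differences from 0.56 to 2.33 and did not pass. The RNA helicase gene PRH75 had 123 and 444 in zone 3 and 1300 and 1060 in zone 4 (2.33, adjusted p = 0.053). NRPA1 and NRPA2 encode the large subunits of RNA polymerase I, which makes rRNA. NRPA2 had 119 and 239, then 465 and 722 (1.78, adjusted p = 0.076), and NRPA1 had 51.0 and 74.8, then 204 and 150 (1.50, adjusted p = 0.14). NOB1 (AT5G41190) and YAO, which act in rRNA processing, had 1.70 and 1.63 (adjusted p = 0.056 and 0.059). The exosome genes RRP41 and RRP41L had 1.24 and 1.46, and the rRNA dimethylase genes DIM1A and DIM1B had 1.38 and 0.56. In all of these but the helicase gene AT3G09720 (RNA helicase 57), zone 3 replicate 1 was the lowest of the 4 arrays. The number called on this list was 0 without either zone 4 array or zone 3 replicate 1, 1 without either zone 2 array and 6 without zone 3 replicate 2, and it was 0 with each array centred on its median.

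**Figure D3:**
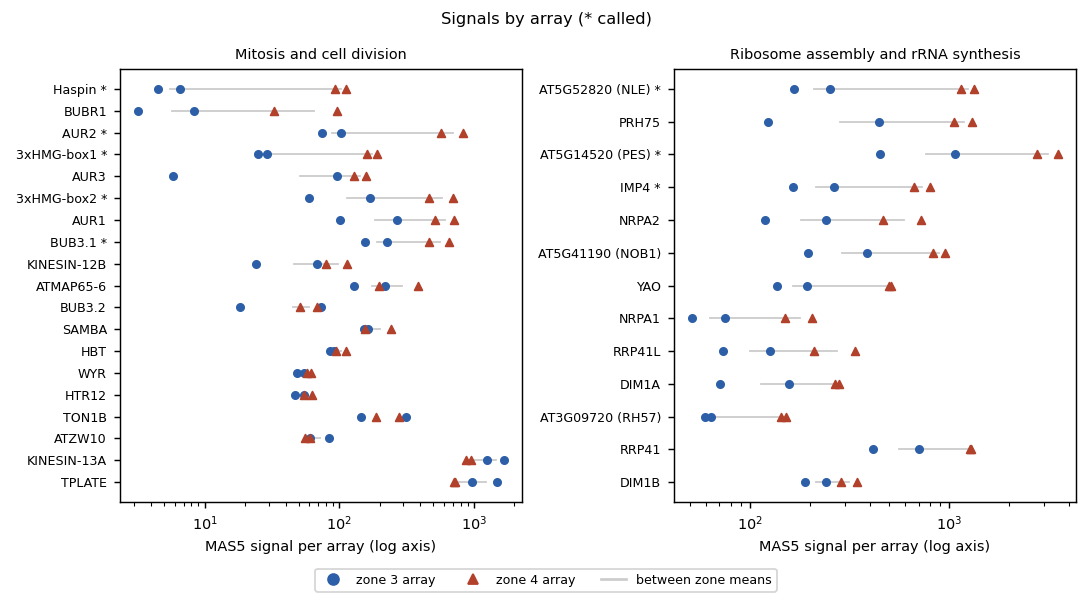
MAS5 signal on each array (horizontal, log axis) of the 19 division genes (left) and the 13 ribosome assembly genes (right) tested, with blue circles for the 2 zone 3 arrays, red triangles for the 2 zone 4 arrays, a grey line between the zone means and a star at called genes. The triangles lie right of the circles for every ribosome assembly gene, and for the division genes the order turns over from Haspin at the top to TPLATE at the bottom.

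Subunits of the RNA polymerases other than polymerase I were tested as a list of 10, with a median log2 difference of 0.79. Of the 10, 2 were higher and 0 lower in zone 4, beside 1.85% and 0.264% of all probe sets tested. NRPB6A, a small subunit that several polymerases share, had signals of 571 and 706 in zone 3 and 1760 and 1580 in zone 4. It rose 2.63-fold (SE of the log2 difference 0.31, adjusted p = 0.048), while its paralogue NRPB6B had 549 and 594, then 928 and 1000, and did not pass (0.75, adjusted p = 0.22). NRPE7, a subunit of the plant-specific polymerase V, had 43.1 and 61.2 in zone 3 and 242 and 140 in zone 4 (1.84, SE 0.40, adjusted p = 0.048). Whether the paralogues differed in their response was not tested. NRPE7 and NRPB6A lost the call when any array of zones 2 to 4 was left out, except NRPE7 without zone 3 replicate 2.

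Among the bright genes, those with a mean signal over the 4 arrays at or above the 75th percentile, the 15 called genes with the widest higher differences had log2 values from 2.14 to 3.58. The widest difference among these called genes was that of ATLP-1, which encodes a thaumatin-like protein of the pathogenesis-related class. Its signals were 65.1 and 171 in zone 3 and 1550 and 1020 in zone 4, against 2240 and 1670 in zone 1 and 442 and 418 in zone 2 (log2 difference 3.58, SE 0.45, 12-fold, adjusted p = 0.014). ATLP-1 thus went from dim to bright between the zones, with zone 4 signals below those of zone 1. UBC20 encodes a ubiquitin-conjugating enzyme of the class that serves the anaphase-promoting complex. It had 344 and 622 in zone 3 and 2610 and 1610 in zone 4 (2.15, SE 0.39, adjusted p = 0.032). Of the 23 genes for ubiquitin conjugation and ubiquitin proteases tested, UBC20 alone was called, beside 2.11% of all probe sets tested. The list's median was 0.20. UBC19, its closest relative by name, had 848 and 419, then 738 and 639, with overlapping zones (0.20, adjusted p = 0.83). NLE and PES, described above, were also among the 15.

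The brightest of the 15 in zone 4 was AT5G54370, with 341 and 945 in zone 3 and 5420 and 4450 in zone 4. This locus and the next ones are given by locus number because no symbol or role for them is listed in the gene table used here. Its difference was 8.66-fold (SE of the log2 difference 0.68, adjusted p = 0.048). In zone 1 AT5G54370 had 1310 and 7020, arrays that disagreed far more than those of zones 3 and 4, and its zone 4 mean was above its zone 1 mean. AT1G52930 had 606 and 802 in zone 3 and 2950 and 3330 in zone 4 (log2 difference 2.17, adjusted p = 0.03), but 10100 and 6590 in zone 1. AT5G20160 had 305 and 765, then 2830 and 1830 (2.24, adjusted p = 0.043). Both had clearly brighter signals in zone 1 than in zone 4, AT5G20160 with 5720 and 5680. AT5G35940 alone among the 15 had its highest mean in zone 2, with 2610 and 1300 there and 1140 and 1100 in zone 1. Its signals were 206 and 589 in zone 3 and 1940 and 1640 in zone 4 (2.35, adjusted p = 0.042).

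The other 7 bright genes had no overlap either. AT5G55180 had nearly the same signal on both zone 3 arrays, 376 and 380, and 2170 and 1850 in zone 4 (2.41, SE 0.34, adjusted p = 0.015). AT1G69526 had 173 and 330, then 1450 and 1540 (2.65, SE 0.37, adjusted p = 0.015). AT5G08180 had 219 and 407, then 2290 and 1570 (2.67, SE 0.39, adjusted p = 0.017). In these 3 the groups were far apart next to the spread within each. AT5G15750, AT5G15550, AT3G53190 and AT1G80750 had log2 differences of 2.29, 2.28, 2.20 and 2.14, with zone 3 signals from 143 to 675 and zone 4 signals from 896 to 2040.

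**Figure D4:**
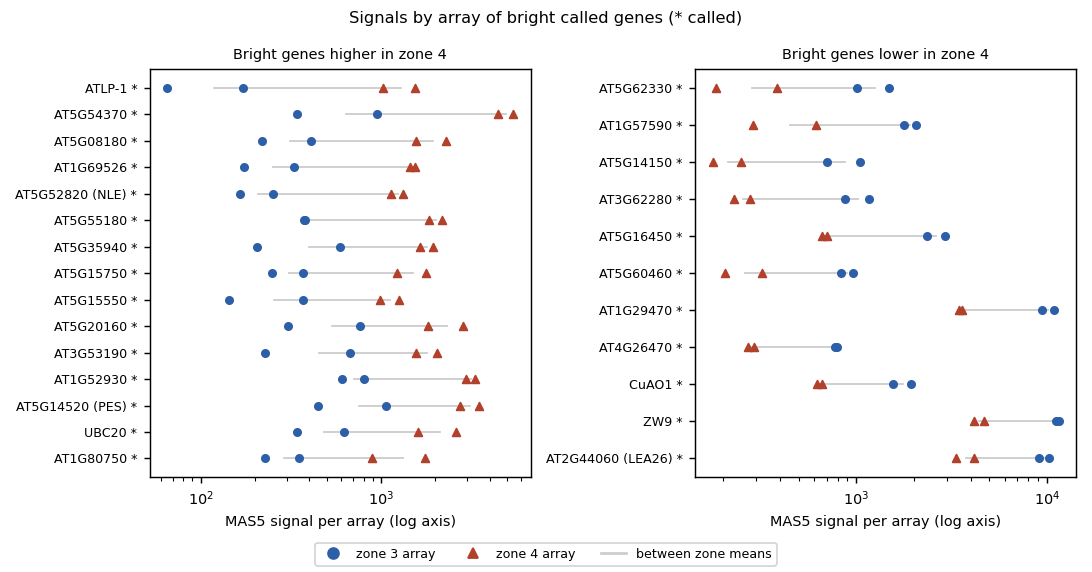
MAS5 signal on each array (horizontal, log axis) of the 15 bright genes called higher (left) and the 11 bright genes called lower (right) in zone 4, with blue circles for zone 3 arrays, red triangles for zone 4 arrays and a grey line between zone means. No gene has overlapping zones, and ZW9, AT1G29470 and AT2G44060 (LEA26) are the brightest in zone 3.

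The genes that were lower in zone 4 were fewer and brighter. Of the 36 probe sets 19 stood for 1 gene each, and 11 of these were among the bright genes as defined above. The brightest was ZW9, with 11200 and 11600 in zone 3 and 4680 and 4150 in zone 4 (log2 difference -1.37, SE 0.26, adjusted p = 0.034). AT2G44060, listed as late embryogenesis abundant 26 (LEA26), belongs by name to a protein family that accumulates in drying seeds and under water stress. It had 10300 and 9060 in zone 3 and 3350 and 4150 in zone 4, and fell 2.59-fold (SE of the log2 difference 0.26, adjusted p = 0.034). In zones 1 and 2 its signals were 2100 and 2090, then 5960 and 5210, so it climbed from zone 1 to zone 3 and fell back in zone 4 without reaching the level of zone 1. ZW9 had the same course, with 1480 and 1780, then 6370 and 8090.

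CuAO1 encodes a copper amine oxidase, which breaks down polyamines and releases hydrogen peroxide. Its signals were 1570 and 1940 in zone 3 and 625 and 661 in zone 4, a fall of 2.72-fold (log2 difference -1.44, SE 0.29, adjusted p = 0.039). BZIP61, a basic leucine zipper transcription factor gene, had 787 and 514 in zone 3 and 133 and 110 in zone 4 (-2.39, SE 0.42, adjusted p = 0.028). It was the 1 of 15 bZIP genes that was called, beside 2.11% of all probe sets tested, in a list with a median of -0.20. AT1G76640, listed as the calmodulin-like gene CML39, had 441 and 193 in zone 3 and 9.66 and 45.9 in zone 4. It had the widest fall of the named genes (-3.79, SE 0.66, adjusted p = 0.028), and -2.68 with dim signals raised, where it was still called. The family member CML38 had 219 and 153, then 132 and 358, with overlapping zones (0.24, adjusted p = 0.88), and the 6 calmodulin-like genes tested had a median of -0.01.

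The other loci that fell carry no symbol here. AT5G16450 had 2920 and 2340 in zone 3 and 661 and 706 in zone 4, with tight pairs in both zones (-1.94, SE 0.29, adjusted p = 0.017). AT1G29470 had 10900 and 9410, then 3600 and 3470 (-1.52, SE 0.26, adjusted p = 0.028). AT1G57590 had 1780 and 2050, then 288 and 613 (-2.18, SE 0.45, adjusted p = 0.043). AT1G29470 fell to the level of zone 1, where it had 3530 and 4900, and AT5G16450 stayed above its zone 1 signals of 182 and 171. AT5G62330, AT5G14150, AT3G62280, AT5G60460 and AT4G26470 were the remaining bright ones, with log2 differences of -2.20, -2.03, -2, -1.81 and -1.48. Dimmer loci that fell were AT1G76470, AT4G14980, AT2G02630, AT3G58540, AT3G53400 and AT1G11540, with -2.75, -2.20, -2.13, -1.62, -1.49 and -1.48 and zone 4 signals from 45.5 to 166. Of the 19 genes, 10 kept their call without zone 3 replicate 2 and 0 without zone 3 replicate 1.

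Some bright genes had differences as wide as those of called ones and did not pass. The neighbouring loci AT1G52050, AT1G52060 and AT1G52070, with no other protein-coding gene between them, had the widest. AT1G52070 had signals of 41.5 and 573 in zone 3 and 3900 and 3190 in zone 4 (log2 difference 4.52, SE 1.05, adjusted p = 0.056). AT1G52060 had 79.9 and 931, then 4170 and 2480 (3.56, adjusted p = 0.094), and AT1G52050 had 139 and 852, then 3140 and 1880 (2.82, adjusted p = 0.098). In all 3 zone 3 replicate 2 was several times brighter than zone 3 replicate 1, and the zone 4 arrays were closer to each other. Their zone 1 arrays also disagreed, with 1390 and 7570 for AT1G52070, 1250 and 6670 for AT1G52060 and 1390 and 5850 for AT1G52050. Zone 1 enters the same estimate of the spread. AT2G28790 had 707 and 2440, then 5220 and 5340, and AT1G25260 had 582 and 1330, then 4400 and 2470 (adjusted p = 0.065 and 0.056). Whether the probe sets of the 3 neighbouring loci bind the same transcripts was not tested.

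On the lower side, OCT5, an organic cation transporter gene, had 3030 and 1580 in zone 3 and 1030 and 676 in zone 4 (-1.39, SE 0.39, adjusted p = 0.094). PRA1.B6, which encodes a small membrane protein of vesicle traffic, had 1800 and 4300, then 1240 and 813 (-1.47, adjusted p = 0.12). AT1G54890, AT3G14595 and AT5G17190 had -1.46, -1.40 and -1.38, all with adjusted p = 0.12. The rule kept genes whose zones did not overlap, and among these 5 OCT5 and AT1G54890 were brighter on zone 3 replicate 1 while PRA1.B6 was brighter on zone 3 replicate 2.

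Among the brightest genes with a small difference, AT5G27850 had 16500 and 16800 in zone 3 and 16900 and 14900 in zone 4 (log2 difference -0.07, SE 0.30). AT3G62870, AT1G67430, AT1G77940 and AT1G15930 had signals between 10500 and 17600 on the 4 arrays and differences of 0.13, -0.18, -0.14 and -0.14, with standard errors from 0.28 to 0.31. In each the zones overlapped, and their sign turned under other scalings or with an array left out. These 5 were picked by rule for a small difference, so their level course is a description.

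**Figure D5:**
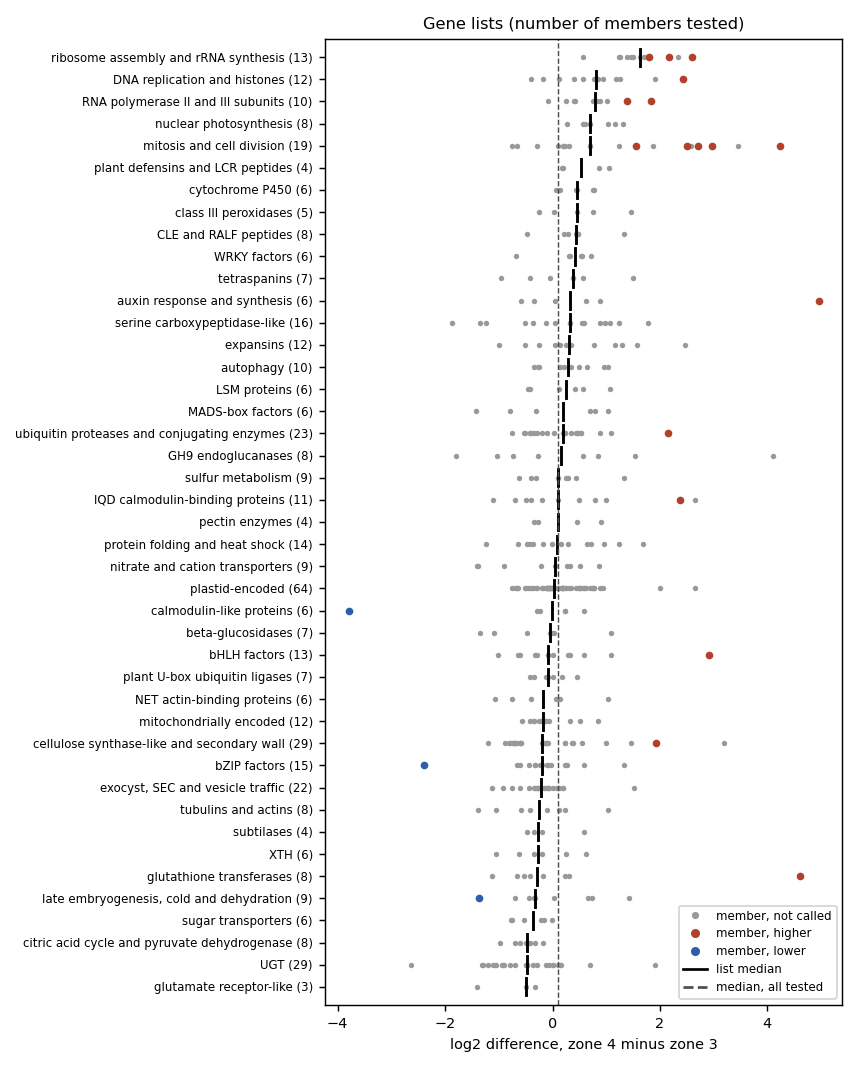
Log2 difference, zone 4 minus zone 3 (horizontal), of each tested member of the 43 gene lists with a tested member (rows, number tested in brackets). Grey points are members not called, red points members higher and blue points members lower in zone 4, black bars are list medians, and the dashed line is the median of all probe sets tested, 0.10. Ribosome assembly has the highest list median, 1.63, and glutamate receptor-like genes the lowest, -0.50.

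The listed genes for cell growth and the wall had differences of both signs. Of 12 expansin genes 0 were called, where 2.11% of all probe sets tested were. Lists as short as those of this paragraph can hold no call at that share. The expansin median was 0.30, and 4 had both zone 4 arrays above both zone 3 arrays, a share near the 30.9% of all probe sets tested. EXPA4 had 3.63 and 52.9 in zone 3 and 62.0 and 93.5 in zone 4 (2.46, adjusted p = 0.26, and 0.80, adjusted p = 0.51, with dim signals raised), and EXPA15 had 171 and 85.1, then 216 and 341 (1.17, adjusted p = 0.32). Of 6 xyloglucan endotransglucosylase genes, which cut and rejoin wall xyloglucan, 0 were called, with a median of -0.27. XTH16 had the widest difference, with 656 and 624 in zone 3 and 438 and 217 in zone 4 (-1.05, adjusted p = 0.2). The 8 endoglucanase genes of family GH9 went to both sides without a call: GH9B6 had 16.5 and 19.7, then 253 and 379 (4.10, SE 1.63, adjusted p = 0.21), and GH9B5 had 351 and 117, then 53.6 and 64.4 (-1.79, adjusted p = 0.15). GH9B6 had tight pairs in zones 3 and 4 but 4.47 and 349 in zone 1, which enters the same estimate of the spread. The 4 pectin enzyme genes of the list that were tested had differences from -0.34 to 0.90, and the 5 class III peroxidase genes from -0.25 to 1.47. Many loci without a symbol, called ones among them, were on no list, so further genes of these families may have been missed.

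The list of cellulose synthase-like and secondary wall genes held 29, most of them of the TRICHOME BIREFRINGENCE-LIKE (TBL) family that acetylates wall polymers. Of these, 1 was higher and 0 lower, beside 1.85% and 0.264% of all probe sets tested, and the median was -0.19. The called gene was TBL36, with 128 and 182 in zone 3 and 609 and 550 in zone 4 (1.92, SE 0.35, adjusted p = 0.032). It kept the call only without zone 3 replicate 2 or a zone 1 array among the arrays left out in turn. In 12 of the 29 both zone 4 arrays lay below both zone 3 arrays, and in 3 above, beside 22.8% and 30.9% of all probe sets tested. The widest negative difference was that of CSLA03, a glucomannan synthase gene, with 595 and 481, then 179 and 300 (-1.21, adjusted p = 0.6). TBL45 had 18.3 and 7.11, then 94.1 and 114 (3.19, adjusted p = 0.15, and 1.32, adjusted p = 0.082, with dim signals raised). TBL41 and the peroxidase gene AT5G66390 (PRX72) had zone 4 signals that disagreed, with 111 and 537 for TBL41 and 147 and 1960 for AT5G66390, zone 4 replicate 2 being the higher as for the root hair genes.

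Sugar-conjugating enzymes had more members below than above in zone 4, and no call, where 2.11% of all probe sets tested were called. Of 29 UDP-glycosyltransferase (UGT) genes tested, which attach sugars to hormones and secondary metabolites, 0 passed, the median was -0.48, and in 14 both zone 4 arrays lay below both zone 3 arrays, with 1 above, beside 22.8% and 30.9% of all probe sets tested. UGT85A7 had 98.4 and 96.6 in zone 3 and 12.5 and 19.9 in zone 4 (-2.63, SE 0.65, adjusted p = 0.065, and -1.12, adjusted p = 0.21, with dim signals raised). UGT71B1 had 520 and 227, then 172 and 112 (-1.31, adjusted p = 0.15). UGT76C2, whose product glucosylates cytokinins, was the 1 gene above, with 44.1 and 50.4, then 151 and 206 (1.90, adjusted p = 0.058), and it was called with dim signals raised (adjusted p = 0.025) and also with an offset of 32 added to each signal. Its relative UGT76C1 had 54.5 and 76.7, then 66.5 and 76.6, and 5 others with mean log2 differences past the 2-fold mark on the lower side had adjusted p from 0.16 to 0.57.

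Glutathione transferases held the gene with the smallest adjusted p among those named. ATGSTF13, of the phi class, had 23.5 and 60.6 in zone 3 and 965 and 880 in zone 4, beside 1120 and 1230 in zone 1 and 107 and 83.4 in zone 2. It rose 24.4-fold (log2 difference 4.61, SE 0.43, adjusted p = 0.0075), and its zone 4 signals were just below those of zone 1. The other 7 members were not called: GSTU22 had 6130 and 4470 in zone 3 and 2390 and 2390 in zone 4 (-1.13, adjusted p = 0.1), and the list median was -0.29. Of 16 serine carboxypeptidase-like genes 0 were called and the median was 0.32, with scpl25 at 1.77 (38.2 and 66.8, then 242 and 122, adjusted p = 0.088) and scpl40 at -1.87 (1040 and 552, then 332 and 129, adjusted p = 0.11). Beta-glucosidases, cytochrome P450s and subtilases, 7, 6 and 4 genes, had 0 calls and medians of -0.04, 0.45 and -0.27. Over all probe sets tested 2.11% were called. PYK10, the main root beta-glucosidase of ER bodies, had 5180 and 7840 in zone 3 and 5880 and 6500 in zone 4. BGLU28 had 225 and 57.4, then 206 and 9.61, with overlapping zones (-1.35, SE 1.39, adjusted p = 0.67, and -0.24, adjusted p = 0.92, with dim signals raised).

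No gene on the lists for energy metabolism and transport passed the test, where 2.11% of all probe sets tested did. These lists hold few genes without a symbol. All 8 genes of the citric acid cycle and pyruvate dehydrogenase had lower mean values in zone 4, 6 of them with no overlap (22.8% of all probe sets tested lay below in this way), but 0 passed (median -0.47, adjusted p from 0.18 to 0.85). IDH-V, a subunit of mitochondrial isocitrate dehydrogenase, had 6090 and 5050 in zone 3 and 3160 and 3710 in zone 4 (-0.70). SDH1-2, of succinate dehydrogenase, had 362 and 181, then 129 and 131 (-0.98). All 6 sugar transporter genes had negative differences, from -0.77 to -0.01. In only 1 of them did both zone 4 arrays lie below both zone 3 arrays, beside 22.8% of all probe sets tested. That gene was the tonoplast transporter TMT1, with 1610 and 1290, then 1040 and 708 (-0.75, adjusted p = 0.27). Of 9 nitrate and cation transporter genes 0 were called, OCT5 among them, and the nitrate transporter family gene AT3G21670 had 155 and 181, then 54.7 and 74.0 (-1.40, adjusted p = 0.35). The mitochondrially encoded genes had a median of -0.18 over 12 with 0 called, and the 64 plastid-encoded genes 0.03 with 0 called. The 8 nuclear photosynthesis genes had a median of 0.70, with both zone 4 arrays above both zone 3 arrays in 5, beside 30.9% of all probe sets tested, and 0 called. LHCB4.1, of the light-harvesting antenna, had 138 and 93.1 in zone 3 and 285 and 281 in zone 4 (1.32, adjusted p = 0.17).

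No gene on the sulfur metabolism list passed the test, where 2.11% of all probe sets tested did. Of 9 genes tested 0 were called, 2 had both zone 4 arrays above and 1 had them below both zone 3 arrays, beside 30.9% and 22.8% of all probe sets tested, and the median was 0.11, beside 0.10 over all probe sets tested. APS3, an ATP sulfurylase that activates sulfate, had signals of 261 and 178 in zone 3 and 273 and 310 in zone 4 (0.43, SE 0.37, adjusted p = 0.59). SIR, the sulfite reductase, had 1220 and 755, then 1150 and 1140 (0.25, SE 0.35, adjusted p = 0.76). SUFE2, an activator of iron-sulfur cluster assembly, had the widest difference, with 133 and 60, then 216 and 236 (1.33, adjusted p = 0.28). In SIR the zones overlapped, zone 3 replicate 2 being low, and in APS3 they did not, though the arrays of neighbouring rank were close.

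The lists of stress, folding and traffic genes held no call but that of LEA26, where 2.11% of all probe sets tested were called. Lists of this length hold few calls at that share. Of 9 late embryogenesis, cold and dehydration genes 1 was lower, LEA26 (above), beside 0.264% of all probe sets tested. LEA26 entered this list by locus number with earlier results of these data known, so this share is no result about the family. The 9 genes had a median of -0.33. HVA22C, of a stress-induced membrane protein family, had 144 and 236 in zone 3 and 579 and 423 in zone 4 (1.42, adjusted p = 0.062). COR47 and LTI30, which encode dehydrins, had zone 3 signals that differed by more than 3-fold, 6990 and 2140 for COR47 and 6170 and 1930 for LTI30, both higher on replicate 1, and neither passed (0.02 and -0.43). Of 14 folding and heat shock genes 0 were called: Fes1C had 57.1 and 119, then 264 and 266 (1.69, adjusted p = 0.058), and ATERDJ3B, a chaperone of the endoplasmic reticulum, 2770 and 3250, then 1180 and 1390 (-1.23, adjusted p = 0.13). Of 22 exocyst and vesicle traffic genes 0 were called, with a median of -0.21. ECHIDNA (AT1G09330), which acts at the trans-Golgi network in secretion, had 4790 and 5410 in zone 3 and 2320 and 2370 in zone 4, apart but short of the threshold (-1.12, SE 0.27, adjusted p = 0.062). VPS2.2, of the ESCRT-III complex, went the other way with 174 and 220, then 569 and 549 (1.51, adjusted p = 0.086).

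Regulators and cytoskeleton genes were called one at a time, beside 2.11% called among all probe sets tested. SPT (SPATULA), a bHLH transcription factor gene that restrains organ growth, had 17.1 and 83.4 in zone 3 and 307 and 268 in zone 4 (2.92, SE 0.61, adjusted p = 0.043). It was the 1 called of 13 bHLH genes, whose median was -0.08. IQD18, of a family of calmodulin-binding scaffold proteins on microtubules, had 36.1 and 56.9, then 224 and 246 (2.37, SE 0.37, adjusted p = 0.018), and was the 1 called of 11 IQD genes, whose median was 0.10. IQD16 had 7.46 and 69.2, then 123 and 166 (2.65, adjusted p = 0.11, and 1.52, adjusted p = 0.087, with dim signals raised), with zone 3 arrays far apart. IAA33, an Aux/IAA family gene of auxin response, had 1.57 and 3.73 in zone 3 and 77.9 and 72.8 in zone 4 and was the 1 called of 6 auxin genes (4.96, SE 1.07, adjusted p = 0.046). Its zone 3 signals were at the dim end, it was not called with dim signals raised (0.86, adjusted p = 0.29), and among the arrays left out in turn it kept the call without zone 3 replicate 2 only. Tubulin and actin genes had a median of -0.26 over 8 with 0 called: TUB5 had 1710 and 1240, then 590 and 529 (-1.38, adjusted p = 0.15), and TUB7 had 360 and 317, then 737 and 649 (1.03, adjusted p = 0.18).

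In the remaining 10 lists with a tested member, 0 genes were called, where 2.11% of all probe sets tested were. Their medians were 0.44 for CLE and RALF peptides, 0.28 for autophagy genes, 0.42 for WRKY factors, 0.20 for MADS-box factors, 0.38 for tetraspanins, -0.17 for NET actin-binding proteins, -0.09 for plant U-box ubiquitin ligases, 0.26 for LSM proteins, -0.50 for glutamate receptor-like genes and 0.53 for plant defensins. RALFL22, a RALF signal peptide gene, had 249 and 379 in zone 3 and 593 and 1010 in zone 4 (1.34, adjusted p = 0.088). ATG8D, whose product coats autophagosomes, had 218 and 234, then 424 and 501 (1.03, adjusted p = 0.14), and TET10 had 103 and 144, then 326 and 364 (1.50, adjusted p = 0.11). In these 3 the zones did not overlap. No listed cytokinin response regulator had a probe set above the filter. With each array centred on its median, 9 list medians changed sign, from above 0 to below it: those of pectin enzymes, GH9 endoglucanases, nitrate and cation transporters, folding, sulfur metabolism, plastid-encoded genes, MADS-box factors, IQD proteins and the ubiquitin list.

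Beyond the lists, 7 more called genes with a symbol were higher in zone 4, named here after their values were seen. RBL (REBELOTE, AT3G55510), a gene needed for the floral meristem to stop, had 45.9 and 83.4 in zone 3 and 256 and 234 in zone 4 (1.99, adjusted p = 0.044). LIS (LACHESIS), a splicing factor gene, had 153 and 138, then 528 and 642 (2.01, SE 0.31, adjusted p = 0.018). TRZ3, a tRNA processing enzyme, had 83.7 and 84.5, then 266 and 367 (1.89, adjusted p = 0.043). LIS and TRZ3 had tight zone 3 pairs, and none of the 3 had overlapping zones. FU (FUSED), a kinase gene of the growing cell plate, had 87.3 and 97.5, then 503 and 400 (2.28, adjusted p = 0.03). MAP1C, a methionine aminopeptidase, had 37.7 and 85.4, then 291 and 199 (2.08, adjusted p = 0.044), and FOLB2, of folate synthesis, had 89.6 and 131, then 420 and 303 (1.72, adjusted p = 0.045). sks16, a multicopper oxidase-like gene, had the widest difference of the 7, with 25.2 and 127 in zone 3 and 940 and 431 in zone 4 (3.49, SE 0.70, adjusted p = 0.039). All 7 had a higher mean in zone 1 than in zone 4, and the zone 1 and zone 4 arrays of FU and FOLB2 overlapped.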

How the data were processed

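Total RNA of root pieces was amplified in 2 cycles, labelled with biotin and hybridised to Affymetrix arrays according to the labels. MAS5 signals were deposited by the authors, an intensity per probe set on a linear scale, made with MAS5 per the submitters' processing notes (version not given in the sources used here). The authors' signals had a trimmed mean of 250.0 on every array, as the file shows. Of 22810 probe sets, 64 controls were left out. The platform annotation gave 1 gene for 13513 of the others, several for 503 and none here for 8730, and only those with 1 gene were named.

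The deposited signals were taken to log2, and the 40% with the lowest mean signal over all 8 arrays were left out (those under 42.5). Each zone had its own mean in a fit of all 8 arrays (limma 3.58.1, R 4.3.3), with a prior variance that followed the mean signal, 4 residual and 6.5 prior degrees of freedom, and Benjamini-Hochberg adjustment over the 13647 probe sets tested. Arrays give no read depth, and 2 per zone limit the precision. Data over 13647 probe sets were also simulated, with independent normal noise and the real spreads shuffled among the probe sets. There 10%, 40%, 70% and 86% of 50 changed probe sets were called at log2 changes of 1.5, 2, 3 and 4. In the same data 3 unchanged ones were called. The shuffling removed the tie between spread and mean signal that the fit uses, so these rates need not hold for the real arrays. Other scalings, filters, offsets, priors, a replicate block and arrays left out in turn were tried.

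Named were the 15 bright called genes with the widest differences in each direction (bright means at or above the 75th percentile of the mean over the 4 arrays), every called gene that was lower, the called members of each list or else its widest differences, 5 bright uncalled genes in each direction whose zones did not overlap, 5 bright genes within 0.2 of a log2 difference of 0, and sulfate assimilation genes. The members and lists were chosen with earlier results of these data known. The other members of the division, replication, ribosome and polymerase lists, the relatives set beside a called gene, other list members outside this rule and the called genes with a symbol in the closing paragraph were chosen after their values were seen. Lists were drawn by gene symbol, and by locus number for some genes without a symbol, because the gene table used here holds no descriptions. NLE, PES, NOB1 and AT3G09720 entered by locus number, as did LEA26, CML39, ECHIDNA and others. Most called genes had no symbol, so the lists could miss them. Of the 252 probe sets called higher, 151 stood for 1 gene and 24 had a symbol, and of the 36 lower, 19 and 3. Sequences were not used here.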

Additional observations from a re-analysis of the deposited data

How the results depend on the processing

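The number of probe sets called, 288 with 252 higher and 36 lower in zone 4, stayed within 1.5 times under quantile normalization, with no filter, with the lowest 60% left out, with an offset of 32, with dim signals raised and with a robust prior, except that quantile normalization gave 168 higher and the raised signals 54 lower. Centring each array on its median gave 93 (66 higher), a prior without trend 37 (35 higher, 2 lower), and zones 3 and 4 alone 3 (3 higher, 0 lower, 2812 at an unadjusted p under 0.05). Leaving out zone 2 replicate 1 and zone 3 replicate 2 together gave 546 (524 higher, 22 lower). Leaving out each array in turn gave 0 to 628 calls, 0 to 590 higher and 0 to 68 lower, with 0 to 8 division and 0 to 6 ribosome assembly members. In the fits that left 1 array in a zone, that array was assumed to vary like the others. The 5 division members called became 3 with centring, 2 without trend and 0 with zones 3 and 4 alone. The 3 ribosome assembly members became 0 with centring, 0 without trend, 0 with zones 3 and 4 alone, 6 with the lowest 60% left out, 5 with the offset, 6 with dim signals raised and 7 with the pair of arrays left out. The cause of these changes was not tested.

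The replicate number as a block gave 127 calls (108 higher, 19 lower) and 1 ribosome assembly member. Deviations of same-numbered arrays of zones 3 and 4 from their zone means correlated at -0.19. The labels do not say whether same-numbered arrays shared a culture or batch, and this was not tested.

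Of 2130 pairs of a followed gene and an alternative, 1621 kept their direction and side of the threshold, 447 lost the call, 43 gained it and 19 changed sign, and 0 of the 56 called genes changed sign. The sign changed for AT5G27850 (0.18 with quantile normalization, 0.02 without zone 4 replicate 2), AT3G62870 (-0.11 with centring, -0.14 without zone 4 replicate 1), AT1G67430 (0.07 with quantile normalization, 0.05 without zone 3 replicate 2 and with the pair left out, 0.11 without zone 4 replicate 2), AT1G77940 (0.10, 0.02, 0.02 and 0.06 in that order) and AT1G15930 (0.08 with quantile normalization, 0.15 without zone 3 replicate 2 and with the pair left out). AT5G66390 had -0.33 without zone 3 replicate 2 and with the pair left out and -0.40 without zone 4 replicate 2, and the beta-glucosidase gene BGLU28 0.86 without zone 4 replicate 2. Over the arrays left out in turn the differences ran from -0.16 to 0.02 for AT5G27850, -0.14 to 0.40 for AT3G62870, -0.46 to 0.11 for AT1G67430, -0.34 to 0.06 for AT1G77940, -0.43 to 0.15 for AT1G15930, -0.40 to 3.34 for AT5G66390 and -3.56 to 0.86 for BGLU28.

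With the lowest 60% left out, no pectin enzyme or glutamate receptor-like gene was left to give a median.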
